A study of Mus musculus with 3 samples.

Results

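The ribosomal protein and respiratory chain genes are described here in cells of the mouse mitral valve. They were found by symbol, as all genes whose names start with Rpl, Rps, Mrpl, Mrps, Nduf, Cox, Atp5, Uqcr or Sdh, leaving out the S6 kinase symbols that start with Rps6k, of which 1 was listed. Of 3264 genes with a value in every cell, 42 met this rule. They comprised 10 proteins of the cytosolic ribosome, 14 proteins of the mitochondrial ribosome and 18 subunits or assembly factors of the respiratory chain. No gene of complex III was listed.

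The study asked how fibrillin-1 deficiency damages the mitral valve, with a main interest in mTOR signaling. The 3 samples are mitral valves of 12-week-old mice that carry the Fbn1tm2Rmz allele on both chromosomes (Fbn1 mgR/mgR, strain B6.129-Fbn1tm2Rmz/J, kept on a C57BL/6J background). In this allele an inserted neo cassette reduces the amount of fibrillin-1 made and leaves the coding sequence whole, in all cells of the mouse. The study also used WT valves, with nuclei of WT, mgR and rapamycin-treated mgR mice. The authors pooled libraries in 1 matrix whose barcodes carry no mark of mouse, genotype, treatment or library, so the matrix was analysed as 1 sample, no genotypes were compared and no test was possible. The file does not label a barcode as a cell or a nucleus, this was not tested, and the word cell is used for both. If barcodes are nuclei, the levels are those of nuclear RNA.

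Ribosomes translate mRNA into protein. The cytosol and the mitochondrion each have their own ribosome, and the proteins of both are encoded in the nucleus. mRNAs of cytosolic ribosomal proteins start with a tract of pyrimidines, the letters C and T in the gene, and are known as TOP mRNAs, a class whose translation depends on mTOR. The respiratory chain passes electrons from complexes I and II through complexes III and IV and uses the proton gradient they build to make ATP in complex V. In valves, interstitial fibroblasts build the matrix and endothelial cells cover the leaflets.

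Each unique molecular identifier (UMI) stands for 1 tagged transcript. A level is the number of UMIs of a gene, or of several genes summed, per 10000 of all UMIs of the same cells, and is followed by its 95% exact Poisson interval. Ratios of levels are followed by their exact conditional interval. Both kinds of interval hold counting error alone, and the spread between mice is unknown. Levels of different genes were not ranked, because they were not scaled to transcript length. The matrix held 16383 cells with 503 to 23127 UMIs each (median 5349), and its genes lie on chromosomes 1, 2 and 3 only. With the column of gene names, these cells fill the column limit of a spreadsheet program. Cells may therefore be missing, and the size and makeup of the matrix may not be those of the full data. Members gave 117729 of 96841909 UMIs, and 548 cells (3.34%) had none.

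Cells were sorted by genes that are no members. Fibroblast-like cells, 3149 in number, had UMIs of at least 2 of Prrx1, Col3a1 and Dpt and none of Egfl7. Egfl7 cells, 8966 in number, had Egfl7 and fewer than 2 of these. Egfl7 is the only endothelial marker listed of 6, so they were not named further. Ptprc cells, 487 in number, had Ptprc, the gene of CD45, and met neither rule, which left 3781 cells unclassed. Of the leukocyte markers that the sorting did not use, Mrc1 was at 14.1 in Ptprc cells, 0.178 in fibroblast-like cells and 0.167 in Egfl7 cells, and Fcgr1 at 0.508, 0.00574 and 0.00428. The cardiomyocyte genes Tnnt2, Ttn and Mybpc3 summed to 1.11 in Egfl7 cells, 0.103 in fibroblast-like cells and 0.244 in Ptprc cells, and their part in the results was not tested. Most of this sum was Ttn, at 1.07 in Egfl7 and 0.0651 in fibroblast-like cells, whereas Tnnt2 was at 0.0327 and 0.0383, with intervals that overlap, and Mybpc3 had 21 and 0 UMIs. Barcode order restarts once, which splits the matrix into a first run of 14222 and a second of 2161 cells that no label explains, with 11 barcodes in both. The second run ends with the matrix and may be incomplete. Median depth was 5154 UMIs in the first run and 6918 in the second. Since every cell makes ribosomal and respiratory chain proteins, no class could serve as a measure of free RNA.

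The bases around the start of the cytosolic ribosomal genes are shown because their mRNAs are known for a pyrimidine tract at the start. RefSeq start regions on GRCm38.p6, the build of the matrix, were held for 35 of the 42 members, among them 9 of the 10 cytosolic ribosomal genes. Each window has 15 bases on either side of the annotated start and reads 5′ to 3′ on the strand of the gene. Capitals mark the longest unbroken run of C and T that reaches within 10 bases of the start. A marked run can lie wholly before the annotated start, as that of Rpl31 does.
Rpl31, chr1:39367836-39367865, plus strand: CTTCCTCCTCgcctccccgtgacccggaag
Rpl37a, chr1:72711245-72711274, plus strand: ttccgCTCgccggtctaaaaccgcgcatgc
Rpl7a, chr2:26910792-26910821, plus strand: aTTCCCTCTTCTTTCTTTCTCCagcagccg
Rpl12, chr2:32961697-32961726, plus strand: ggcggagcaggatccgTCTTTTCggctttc
Rpl35, chr2:39005117-39005146, minus strand: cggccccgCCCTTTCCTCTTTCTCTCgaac
Rpl22l1, chr3:28805493-28805522, plus strand: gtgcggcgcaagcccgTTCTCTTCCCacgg
Rps21, chr2:180257364-180257393, plus strand: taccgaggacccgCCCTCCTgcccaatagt
Rps3a1, chr3:86142654-86142683, minus strand: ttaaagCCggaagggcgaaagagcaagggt
Rps27, chr3:90213634-90213663, minus strand: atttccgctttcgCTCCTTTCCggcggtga
A mitochondrial ribosomal gene and 2 respiratory chain genes are shown for contrast.
Mrps9, chr1:42851218-42851247, plus strand: tgggaggtctgcgcctgcgcagTCTCCagg
Cox5b, chr1:36691472-36691501, plus strand: ctggTCggggcaggaagcggaagactgacc
Atp5e, chr2:174464087-174464116, minus strand: ggcaggtccgcgtaccccaCCCCTTCCgct

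A run of at least 6 letters that are each C or T was found in 7 of the 9 cytosolic ribosomal windows (77.8%). It was found in 4 of 12 mitochondrial ribosomal windows (33.3%) and in 4 of 14 respiratory chain windows (28.6%). Among all 27025 genes with such a window the share was 29.1%, and on the opposite strand of the same windows it was 32.1%. A run of at least 8 was found in 5 of the 9 (55.6%), against 11.9% of all genes. It was also found in 3 of 12 mitochondrial ribosomal windows (25%) and in 3 of 14 respiratory chain windows (21.4%). Mrpl44 and Mrpl9, which are not printed, had runs of 10 bases. Rpl7a had the longest run, at 21 bases, followed by Rpl35 at 18. Rpl37a, with 3, and Rps3a1, with 2, held no such run in these windows. The RefSeq and GENCODE starts differ by 493 bases for Rpl35, 153 for Rpl12 and 72 for Rpl22l1, so a window need not hold the first bases of the mRNA in use. The matrix holds the share of each mRNA among the UMIs of a cell and nothing on its translation.

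Genes of the cytosolic ribosome were the group that differed most between the classes. Their 10 genes together were at 5.43 UMIs per 10000 (5.36 to 5.49) in Egfl7 cells, 3.65 (3.42 to 3.89) in Ptprc cells and 1.81 (1.75 to 1.87) in fibroblast-like cells. The ratio of Egfl7 to fibroblast-like cells was 2.995 (2.90 to 3.10), and that of Ptprc to fibroblast-like cells was 2.02 (1.87 to 2.17). The mitochondrial ribosomal genes were at 3.74 (3.69 to 3.80) in Egfl7 cells and 3.72 (3.64 to 3.81) in fibroblast-like cells, a ratio of 1.01 (0.980 to 1.03). Summed respiratory chain genes lay between, at 4.33 (4.27 to 4.38) and 3.73 (3.64 to 3.81), a ratio of 1.16 (1.13 to 1.19). Their place above the mitochondrial ribosomal group rested on the mitochondrial ribosomal gene Mrps28, without which that group had a ratio of 1.17. The median ratio of single genes was 1.197 for the mitochondrial ribosomal group, with Mrps28 included, and 1.17 for the respiratory chain. Over all 42 members the ratio was 1.46 (1.43 to 1.48).

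**Figure D1:**
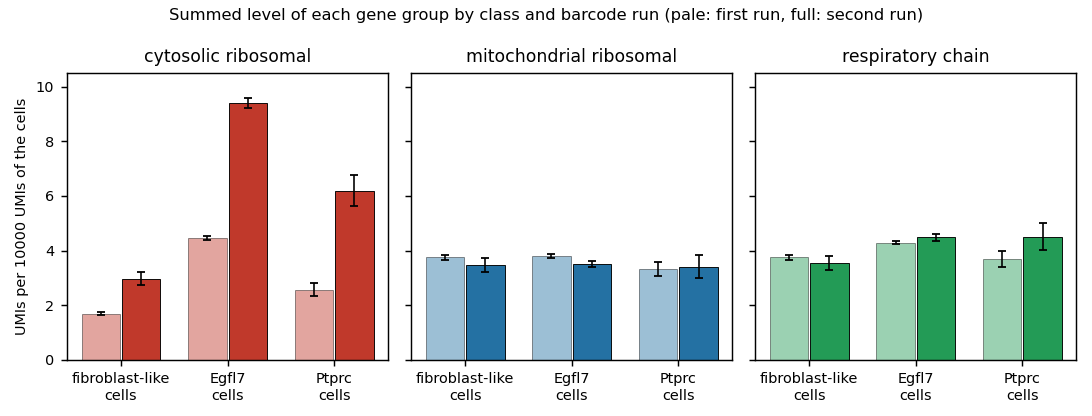
Bars give the summed level of each gene group, in UMIs per 10000 UMIs of the cells, for fibroblast-like, Egfl7 and Ptprc cells in the first (pale) and second (full color) barcode run, and error bars are 95% exact Poisson intervals. The cytosolic ribosomal bars run from 1.68 to 9.42, whereas the mitochondrial ribosomal bars all lie between 3.31 and 3.80.

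Gene by gene, 18 of the 42 members (42.9%) were at least 1.5-fold higher in Egfl7 than in fibroblast-like cells, against 22.1% of the 2515 genes with 100 or more UMIs. Only 2 members were at least 1.5-fold lower, against 25.5% of these genes. All 42 members passed that filter on UMIs. The median ratio was 1.23 over members and 0.969 over all genes passing the filter. By group, all 10 cytosolic ribosomal genes were past the fold upward (median 3.27, range 1.501 to 3.97). The mitochondrial ribosomal group had 3 of 14 genes past it upward and 1 downward, with a median of 1.197. The respiratory chain had 5 of 18 upward and 1 downward, with a median of 1.17. Within the first run 17 members were past the fold upward, with a background of 21.6%, and 2 downward, with a background of 25.4%. Within the second run these were 19, with a background of 27.0%, and 1, with a background of 28.5%. In both runs 15 members were past it upward, with a background of 18.3%, and 1 downward, with a background of 21.5%. Of the 15, 9 were cytosolic ribosomal, and the exception of that group was Rpl22l1, with a ratio of 1.37 in the first run.

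**Figure D2:**
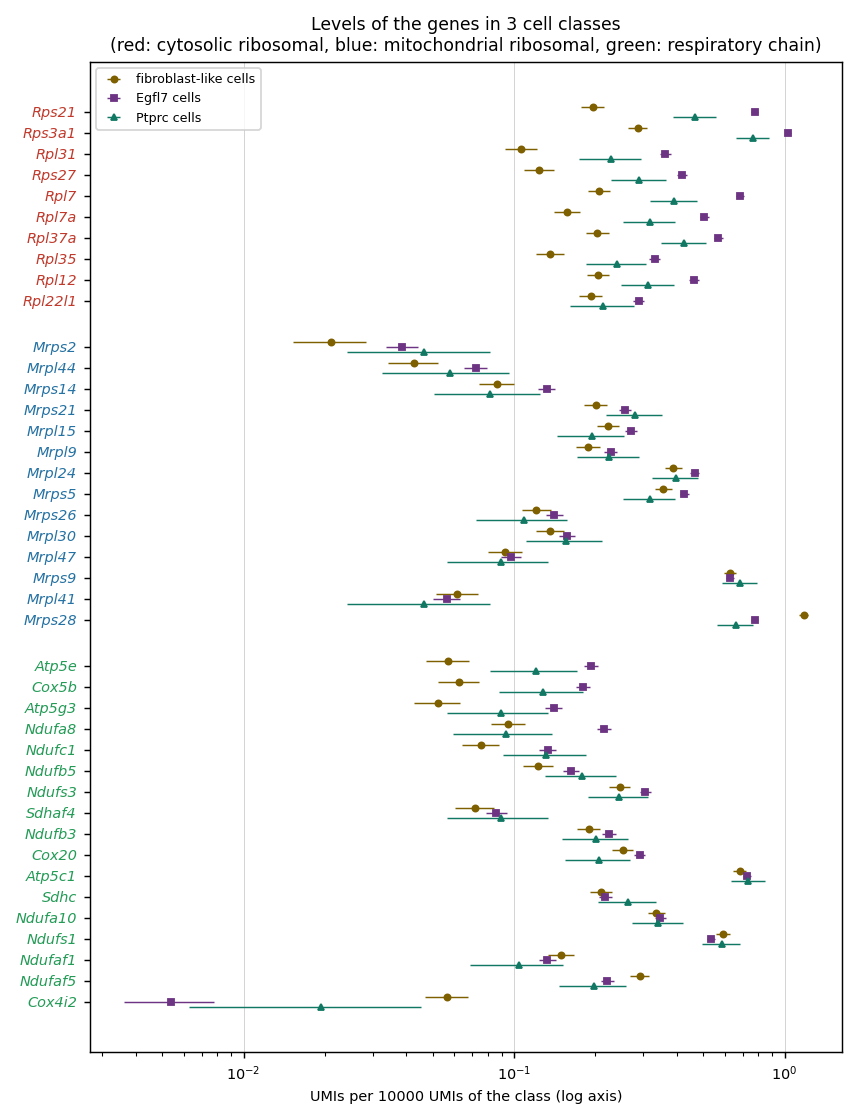
Points give the level of each of 41 of the 42 genes in fibroblast-like, Egfl7 and Ptprc cells, in UMIs per 10000 UMIs of the class on a log axis, with 95% exact Poisson intervals. Genes are grouped by function and ordered by the ratio of Egfl7 to fibroblast-like cells. Fibroblast-like cells had the lowest level of every cytosolic ribosomal gene. They had the highest level of Mrps28 and Cox4i2, at the foot of their groups, and by less that of Mrpl41, Ndufs1, Ndufaf1 and Ndufaf5.

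In the small subunit of the cytosolic ribosome, Rps21 had the highest ratio of all members. Its level was 0.775 (0.751 to 0.799) in Egfl7 cells, 0.465 (0.386 to 0.556) in Ptprc cells and 0.195 (0.177 to 0.215) in fibroblast-like cells, so that Egfl7 over fibroblast-like cells was 3.97 (3.59 to 4.41). These intervals do not overlap. Within the first run the 2 levels of Rps21 were 0.592 in Egfl7 and 0.171 in fibroblast-like cells, and within the second 1.54 and 0.406. Rps3a1, another protein of this subunit and the cytosolic ribosomal member with most UMIs (7798), was at 1.03 in Egfl7, 0.763 in Ptprc and 0.286 in fibroblast-like cells. Its ratio to fibroblast-like cells was 3.59 (3.30 to 3.91) for Egfl7 cells and 2.67 (2.26 to 3.14) for Ptprc cells, the latter the highest of the members. Rps27 was at 0.419 in Egfl7, 0.291 in Ptprc and 0.124 in fibroblast-like cells, a ratio of 3.38 (2.97 to 3.86) for Egfl7 cells. Summed, the 3 small subunit genes had a ratio of 3.67 (3.46 to 3.89).

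The 7 large subunit genes had a summed ratio of 2.66 (2.55 to 2.77), below that of the small subunit, with intervals that do not overlap. Within the second run the intervals do overlap, at 2.99 (2.69 to 3.33) for the large and 3.46 (3.05 to 3.94) for the small subunit. Single genes of the 2 subunits also overlap in their ratios. Rpl31 was at 0.362 in Egfl7 cells and 0.106 in fibroblast-like cells, a ratio of 3.41 (2.97 to 3.94). Rpl7 was at 0.686 and 0.206, a ratio of 3.33 (3.01 to 3.69), and Rpl7a, which bears the longest pyrimidine run, was at 0.506 and 0.157, a ratio of 3.21 (2.87 to 3.61). Rpl37a, whose window holds no run of 6, was at 0.569 and 0.203, a ratio of 2.80 (2.53 to 3.11). Rpl35 followed with 2.43 (2.14 to 2.77) and Rpl12 with 2.26 (2.04 to 2.51). Rpl22l1, a paralog of the large subunit protein Rpl22, stood apart at the lower end with 1.501 (1.34 to 1.68), from levels of 0.289 and 0.192. In Ptprc cells it was the 1 cytosolic ribosomal gene not past the fold, at 0.213 (0.161 to 0.277) and a ratio of 1.11. Reads of ribosomal protein genes can be shared with processed pseudogenes, of which 300 Rpl or Rps symbols are annotated in GENCODE M21, so single-gene values are uncertain to that extent.

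Among the mitochondrial ribosomal genes, 10 of 14 were within the 1.5-fold threshold between Egfl7 and fibroblast-like cells, and the gene with most UMIs was lower in Egfl7 cells. Mrps28, a small subunit protein and the member with most UMIs (8418), was at 1.18 (1.13 to 1.22) in fibroblast-like cells, 0.776 (0.752 to 0.7996) in Egfl7 cells and 0.659 (0.563 to 0.766) in Ptprc cells. The ratio of Egfl7 to fibroblast-like cells was 0.660 (0.628 to 0.694), and it was 0.652 and 0.723 within the first and second runs. Mrps9 was at 0.627 and 0.628 in Egfl7 and fibroblast-like cells, a ratio of 0.997 (0.935 to 1.06). Mrpl24 of the large subunit was at 0.465 and 0.388, a ratio of 1.198 (1.11 to 1.30). Summed, the 7 large subunit genes had a ratio of 1.19 (1.14 to 1.25) and the 7 small subunit genes one of 0.926 (0.897 to 0.956). Mrps28 gave 2457 of the 5414 small subunit UMIs in fibroblast-like cells and 4172 of the 12894 in Egfl7 cells. The other small subunit genes had ratios from 0.997 (Mrps9) to 1.84 (Mrps2), so the sum below 1 reflects Mrps28 and not the subunit. The 3 genes past the fold upward were Mrps2 (1.84), Mrpl44 (1.69) and Mrps14 (1.53), which have 323 to 1165 UMIs over all cells. Of these, Mrpl44 alone was past it in both runs. Mrps2 also had the fourth highest ratio of Ptprc to fibroblast-like cells, 2.21 (1.06 to 4.26), from 12 UMIs in Ptprc cells. Mrpl41 had one of the 5 lowest such ratios, 0.754 (0.380 to 1.36), also from 12 UMIs, with an interval that spans 1. Without Mrps28 the group ratio of Egfl7 to fibroblast-like cells moved from 1.01 to 1.17.

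In complex V, which makes ATP, the 3 listed subunits differed. Atp5e, the epsilon subunit of the rotor stalk, was at 0.192 (0.181 to 0.205) in Egfl7 cells, 0.120 (0.0816 to 0.171) in Ptprc cells and 0.0569 (0.0472 to 0.0681) in fibroblast-like cells. Its ratio of 3.38 (2.79 to 4.12) was the highest outside the cytosolic ribosome. Atp5g3, one of the genes for the ring subunit c, was at 0.140 in Egfl7 and 0.0521 in fibroblast-like cells, a ratio of 2.69 (2.19 to 3.31). Atp5c1, the gamma subunit, was at 0.726 and 0.682, a ratio of 1.06 (1.001 to 1.13). It spans 24.5 kb of genome, Atp5e 3.03 kb and Atp5g3 2.88 kb.

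Complex IV held the widest contrast. Cox5b, a subunit found in most tissues, was at 0.180 (0.169 to 0.192) in Egfl7 cells, 0.128 (0.0880 to 0.180) in Ptprc cells and 0.0627 (0.0524 to 0.0744) in fibroblast-like cells, a ratio of 2.87 (2.39 to 3.47). Cox4i2, the second isoform of subunit IV, which is known from lung and from the mural cells of vessels, went the other way. It had 118 UMIs in fibroblast-like cells (0.0564, 0.0467 to 0.0676), 29 in Egfl7 cells (0.00539, 0.00361 to 0.00774) and 5 in Ptprc cells (0.0194, 0.00629 to 0.0452). Egfl7 over fibroblast-like cells was 0.0955 (0.0613 to 0.144), and the same order was seen in the first run (0.102) and the second (0.0687). The 154 cells with Rgs5, a mural cell marker, had Cox4i2 at 0.0802 (0.0367 to 0.152) from 9 UMIs. Rgs5 itself was at 0.0985 in fibroblast-like cells and 0.00205 in Egfl7 cells, and its part in the difference was not tested. Cox20, a chaperone for the assembly of complex IV, was at 0.291 and 0.252 in Egfl7 and fibroblast-like cells, a ratio of 1.15 (1.05 to 1.28).

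Complex I, the entry of electrons from NADH, was within the fold, with a summed ratio of 1.16 (1.12 to 1.202) over 8 subunits. Its core subunit Ndufs1 was at 0.534 (0.515 to 0.554) in Egfl7 cells and 0.593 (0.560 to 0.627) in fibroblast-like cells, a ratio of 0.901 (0.843 to 0.964). The core subunit Ndufs3 was at 0.306 and 0.246, a ratio of 1.24 (1.13 to 1.38), and the accessory subunit Ndufa10 at 0.348 and 0.336, a ratio of 1.04 (0.949 to 1.13). Of the accessory subunits, Ndufa8 and Ndufc1 were past the fold, with ratios of 2.26 (1.95 to 2.64) and 1.76 (1.48 to 2.10), also within each run. The accessory subunits Ndufb3 and Ndufb5 had ratios of 1.19 (1.06 to 1.34) and 1.32 (1.15 to 1.53). The 2 assembly factors of complex I were lower in Egfl7 cells, with a summed ratio of 0.803 (0.742 to 0.869). Ndufaf5 was at 0.221 in Egfl7, 0.198 in Ptprc and 0.292 in fibroblast-like cells, a ratio of 0.758 (0.687 to 0.837) for Egfl7 cells. Ndufaf1 was at 0.133, 0.105 and 0.149 in the same order, a ratio of 0.890 (0.778 to 1.02), with an interval that spans 1. Complex II, which feeds electrons from succinate, was listed by its anchor subunit Sdhc, with a ratio of 1.04 (0.930 to 1.16), and its assembly factor Sdhaf4, with 1.2 (0.996 to 1.45).

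In Ptprc cells the cytosolic ribosomal group alone was clearly above fibroblast-like cells. The mitochondrial ribosomal ratio was 0.897 (0.835 to 0.962) and that of the respiratory chain 1.05 (0.986 to 1.13), with an interval that spans 1. Against fibroblast-like cells, 14 of 42 members (33.3%) were at least 1.5-fold higher, with a background of 27.3% of all genes. At least 1.5-fold lower were 2, with a background of 30.4%. Of the 14, 9 were cytosolic ribosomal, 1 mitochondrial ribosomal and 4 respiratory chain genes, the last being Atp5e (2.11), Cox5b (2.04), Ndufc1 (1.74) and Atp5g3 (1.71). The 2 lower genes were Cox4i2 (0.343, 0.109 to 0.824) and Mrps28 (0.561, 0.477 to 0.655). Within the first run 9 members (21.4%) were past the fold upward, below the background of 26.1%, and 2 downward, with a background of 31.4%. Within the second run 19 members (45.2%) were past it upward and 5 downward, with backgrounds of 31.1% and 32.2%. In both runs 8 of the 42 members were past it upward, below the background of 21.1%, and 2 downward, with a background of 24.1%. Cytosolic ribosomal genes made up 5 of the 9 in the first run and 5 of the 8. These comparisons share the fibroblast-like cells with those of Egfl7 cells. Set directly against Ptprc cells, Egfl7 cells had 8 members at least 1.5-fold higher, with a background of 26.7%, and 1 lower, with a background of 26.9%. The Ptprc cells with Mrc1, a macrophage receptor, had the cytosolic ribosomal genes at 2.69 (2.45 to 2.94, 312 cells), and those without Mrc1 at 5.78 (5.26 to 6.33, 175 cells). Within the first run these levels were 1.93 and 4.11, and within the second 4.66 and 8.89. The mitochondrial ribosomal genes were at 3.29 and 3.44 in these cells, with intervals that overlap.

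Egfl7 cells differed among themselves in the same genes. The cytosolic ribosomal level was 9.79 (9.45 to 10.2) in the 472 with a UMI of Fabp4, 7.69 (7.47 to 7.92) in the 765 with Tmem163, 6.73 (6.54 to 6.92) in the 1130 with Selp and 5.37 (5.29 to 5.46) in the 4360 with Prox1. It was 4.71 (4.61 to 4.82) in those with none of these 4 genes. The sets overlap in cells, and they differ in depth, with medians from 4696 to 7262 UMIs, and in the share of cells from the second run, from 3.79% with Tmem163 to 19.5% with Prox1. The first run alone gave 8.65 with Fabp4, 7.55 with Tmem163, 4.85 with Selp, 3.88 (3.79 to 3.96) with Prox1 and 4.22 (4.11 to 4.32) with none, so that Prox1 and none changed places. In the second run alone the levels were 15.4, 10.9 (29 cells), 13.4, 9.93 and 7.61 in that order of sets. Over both runs, the mitochondrial ribosomal level lay between 3.72 and 4.10 over the same sets, and the respiratory chain level ranged from 4.12 to 5.57.

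The second barcode run had a larger share of its UMIs on cytosolic ribosomal genes in each class. The level was 7.88 (7.75 to 8.02) over all its cells and 3.63 (3.59 to 3.67) in the first run, a ratio of 2.17 (2.13 to 2.22). In fibroblast-like cells it was 2.96 (2.74 to 3.201) against 1.68 (1.62 to 1.74), in Egfl7 cells 9.42 (9.23 to 9.61) against 4.47 (4.40 to 4.53), and in Ptprc cells 6.19 (5.65 to 6.77) against 2.56 (2.33 to 2.81). The mitochondrial ribosomal ratio between runs was 0.922 (0.895 to 0.949) and that of the respiratory chain 1.04 (1.01 to 1.07). Past the 1.5-fold threshold were 12 members upward, with a background of 7.67%, and 1 downward, with a background of 14.4%. The 12 were the 10 cytosolic ribosomal genes, Atp5g3 (1.86) and Atp5e (1.81), and the 1 was Cox4i2 (0.666, 0.429 to 0.997).

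Within fibroblast-like cells 10 members were past the fold upward and 0 downward, with backgrounds of 10.3% and 17.5%. Within Egfl7 cells these were 12 and 2, with backgrounds of 7.87% and 15.5%, and within Ptprc cells 18 and 5, with backgrounds of 17.3% and 23.1%. Cytosolic ribosomal genes made up 7 of the 10, 10 of the 12 and 8 of the 18.

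Rps27 had the highest ratio between runs, 3.07 (2.85 to 3.30), from levels of 0.242 and 0.741, followed by Rps21 with 2.72 (2.58 to 2.88), Rpl37a with 2.29, Rps3a1 with 2.15 and Rpl12 with 2.05. Within Egfl7 cells alone, Rps27 had a ratio of 2.98 and Rps21 of 2.60. At the low end beside Cox4i2 were the mitochondrial ribosomal genes Mrps5 (0.683, 0.618 to 0.753) and Mrps26 (0.702, 0.589 to 0.832), and then Ndufaf1 (0.738) and Cox20 (0.816). The runs also differ in depth and in their makeup, with Egfl7 cells 63.3% of the second and 53.4% of the first. Run and genotype, treatment or library cannot be told apart here.

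Most members past the fold have short genes. The cytosolic ribosomal genes have a median annotated span of 2.96 kb, introns included, against 7.94 kb for mitochondrial ribosomal, 10.53 kb for respiratory chain and 24.1 kb for all listed genes. Spearman's rho between span and the ratio of Egfl7 to fibroblast-like cells was -0.68 over the 42 members, -0.56 over the 32 that are not cytosolic ribosomal and -0.21 over 2447 other genes. This is a correlation across genes, which share cells and total UMIs and are not independent. Of the 27 members under 10 kb, 17 were past the fold upward and 0 downward, while of the 15 longer members 1 was past it upward (Ndufa8) and 2 downward (Cox4i2 and Mrps28). Mrps28 is the longest member, with 122 kb.

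Genes that are no members leaned the same way with less difference. Of 497 other genes under 10 kb, 31.2% were at least 1.5-fold higher in Egfl7 cells and 17.1% at least 1.5-fold lower, and their summed levels were 98.9 and 62.8, a ratio of 1.58. For 411 other genes of 100 kb or more these shares were 20.2% and 47.7%, and the ratio of sums was 0.773. Set beside these, the cytosolic ribosomal genes had a summed ratio of 2.995 and the other 17 members under 10 kb one of 1.36. Between the runs, rho was -0.56 over members, -0.25 over the 32 that are not cytosolic ribosomal and 0.00077 over other genes. Other genes under 10 kb had a ratio of sums of 1.15 between runs, and the 17 other members under 10 kb one of 1.04. The part of gene length in the differences was not tested.

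**Figure D3:**
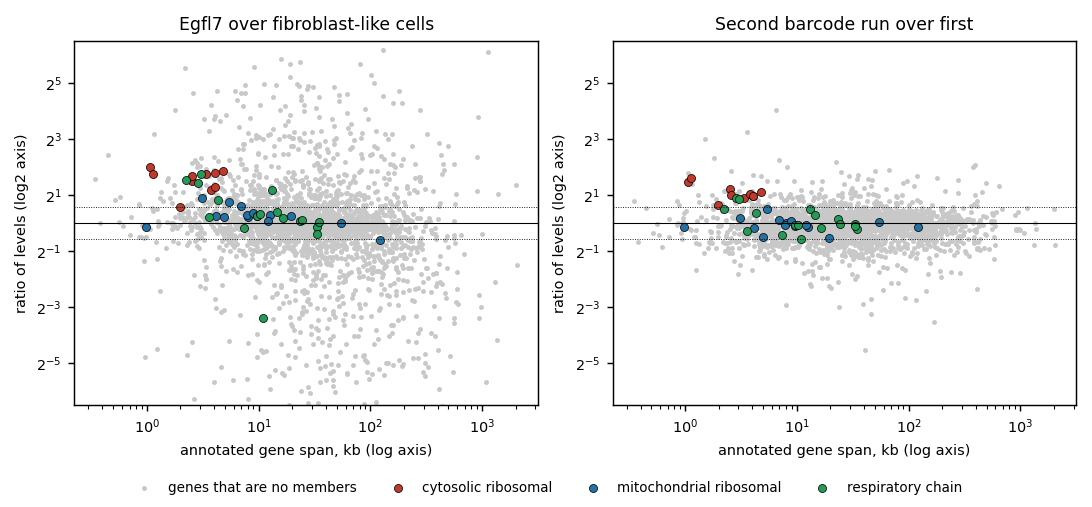
Each point is a gene, by annotated span in kb (log axis) and by the ratio of its levels (log2 axis) in Egfl7 over fibroblast-like cells at left and in the second over the first barcode run at right. Members are colored by group and all other genes with 100 or more UMIs are grey, with dotted lines at 1.5-fold and 6 grey genes at left and 1 at right beyond the axis. The cytosolic ribosomal genes, all under 10 kb, lie above the upper dotted line or on it in both panels.

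Within Egfl7 cells, the cytosolic ribosomal UMIs were concentrated in a minority of cells. Each cell was thinned at random to 2000 UMIs, which left out 563 Egfl7 and 92 fibroblast-like cells that were shallower, and the remaining cells were grouped by their UMIs of the 3 Rps genes. At this depth, 53.9% of Egfl7 cells and 69.9% of fibroblast-like cells had no cytosolic ribosomal UMI (25.1% and 35.7% without thinning). Of the Egfl7 cells 301 (3.58%, 3.19 to 4.002) had 3 or more Rps UMIs, and they carried 26.8% of the Rpl UMIs of the class and 4.81% of all its UMIs. Of the fibroblast-like cells 7 (0.229%, 0.0921 to 0.471) did.

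Genes not used for the grouping differed between these cells. The level of the 7 Rpl genes in Egfl7 cells was 1.91 (1.87 to 1.95) at 0 Rps UMIs, 3.66 (3.53 to 3.79) at 1, 8.52 (8.12 to 8.93) at 2 and 17.9 (17.4 to 18.4) at 3 or more. Respiratory chain genes under 10 kb were at 1.05 (1.02 to 1.08), 1.52, 2.81 and 4.90 (4.63 to 5.18) over the same steps, and longer respiratory chain genes at 2.76 (2.71 to 2.81), 3.002, 3.47 and 5.41 (5.13 to 5.71). Mitochondrial ribosomal genes went from 3.61 (3.55 to 3.67) to 5.24 (4.96 to 5.53). Mrps28, one of these genes, had a lower level in the cells with more Rps UMIs, with 0.809 (0.781 to 0.837) at 0 and 0.542 (0.455 to 0.640) at 3 or more.

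Other genes under 10 kb were at 84.5 in Egfl7 cells with 0 Rps UMIs and at 248 in those with 3 or more, whereas other genes of 100 kb or more were at 664 and 432. Of single members, Cox5b was at 0.104 (0.0945 to 0.115) and 0.966 (0.849 to 1.10), and Atp5e at 0.107 (0.0967 to 0.117) and 1.10 (0.974 to 1.24). Of other genes, S100a6, a calcium-binding protein, was at 0.482 and 6.92. Egfl7 itself was at 7.25 (7.16 to 7.33) and 4.92 (4.66 to 5.20), but the direction held in 1 run only, with 7.38 and 3.41 in the first and 6.53 (6.32 to 6.73) and 6.98 (6.49 to 7.49) in the second. The cells with 3 or more Rps UMIs were also deeper, with a median of 8362 against 5467 UMIs before thinning, and 41.5% of them came from the second run, against 11.9%. The Rpl level at 0 and at 3 or more Rps UMIs was 1.80 and 18.3 within the first run, and within the second it was 2.52 and 17.4. The part of depth, run and gene length in this was not tested.

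Cells with no Rps UMI in the thinned draw also differed between classes. Such a cell can hold Rps UMIs outside the draw, so the grouping does not make Rps levels equal between classes. Among cells with 0 Rps UMIs in 2000, the Rpl level was 1.91 in 6471 Egfl7 cells and 1.14 (1.09 to 1.19) in 2703 fibroblast-like cells, a ratio of 1.68 (1.60 to 1.76). By run this ratio was 1.61 (1.52 to 1.69), first, and 1.95 (1.69 to 2.25), second. With all cells thinned, the ratio of the cytosolic ribosomal levels was 2.41, against 2.995 without thinning.

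**Figure D4:**
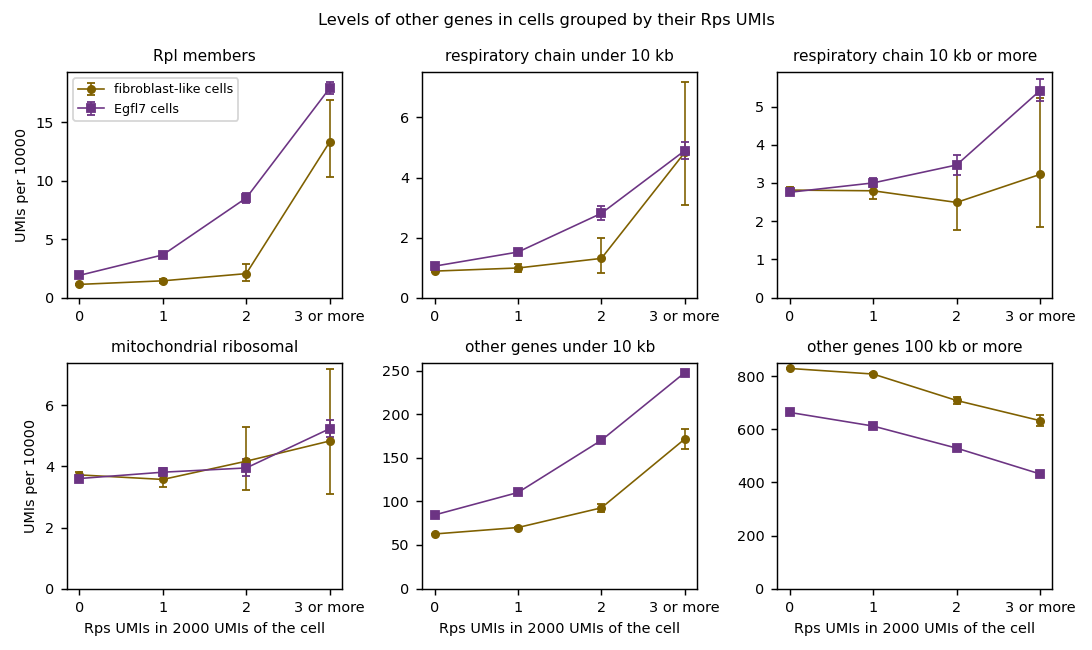
Panels give levels (UMIs per 10000, from unthinned UMIs, with 95% exact Poisson intervals) of 6 sets of genes in fibroblast-like and Egfl7 cells that have 0, 1, 2 or 3 or more Rps UMIs after thinning to 2000 UMIs. In Egfl7 cells the Rpl genes go from 1.91 to 17.9 and other genes of 100 kb or more from 664 to 432, and the last step of the fibroblast-like cells rests on 7 cells.

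Further genes of protein synthesis and of mitochondria were taken from lists by symbol. Of 13 listed translation factors (Eif and Eef), 12 passed the filter, of which 2 were at least 1.5-fold higher in Egfl7 than in fibroblast-like cells and 1 lower, below the shares of all genes (22.1% and 25.5%), with a median ratio of 1.28 against 0.969 over all genes. The 2 were Eef1b2, an exchange factor of elongation, with 2.45 (2.19 to 2.74), and Eif6, which binds the large subunit, with 2.05 (1.71 to 2.48), and the 1 was Eif5a2 with 0.623 (0.481 to 0.810). Eef1b2, whose mRNA also belongs to the TOP class, was at 0.427 and 0.175 in the 2 classes, and its ratio between runs was 1.91 (1.77 to 2.06). Of 4 genes of ribosome assembly in the nucleolus, Nop10 (2.17, 1.84 to 2.56) and Ncl, which encodes nucleolin (1.65, 1.58 to 1.73), were past the fold and Nop56 (1.41) and Nop58 (1.43) were not, a list too short to set beside the 22.1% of all genes.

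The mitochondrial import list had 1 of 4 genes past the fold, Timm10 (1.98, 1.37 to 2.93), close to the background of 22.1%, and a ratio of sums of 1.07 (1.01 to 1.14). Of the TCA cycle, Idh3b (1.10) and Fh1 (1.02) were listed and neither was past it. Among 6 regulators, Esrrg, a nuclear receptor that acts on mitochondrial genes, was at 0.162 in Egfl7 and 1.19 in fibroblast-like cells, a ratio of 0.136 (0.125 to 0.146), and Tsc1, which restrains mTOR, was at 0.452 and 0.766, a ratio of 0.590 (0.554 to 0.629). Nfe2l2, Gabpb1, Gabpb2 and Tfb2m were within the fold for Egfl7 cells, with ratios of 0.872 to 1.30. Nfe2l2 was at 3.24 in Ptprc cells.

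Some members overlap other genes. In GENCODE M21, 14 of the 42 overlap a listed gene on the opposite strand, among them Rpl31 with Tbc1d8, Rpl12 with Lrsam1, Rpl35 with Arpc5l and Ndufs1 with Eef1b2, and 0 overlap one on the same strand. Whether counting used the strand is not given in the sources used here. Mrpl47 and Ndufb5 lie head to head on chromosome 3, with RefSeq starts 308 bases apart, and had ratios of Egfl7 to fibroblast-like cells of 1.05 (0.892 to 1.25) and 1.32 (1.15 to 1.53).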

How the data were processed

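The authors processed reads with Cell Ranger (version 7.1.0, mm10, per the labels) and filtered, pooled and log-normalized cells in Seurat. In the deposited table each entry is the natural log of a cell's UMIs of a gene, scaled to 10000 per cell, with 1 added first. Tests on counts of samples had been planned, but barcodes name no sample, so no count model was fitted and no p-value is given. UMIs were recovered by dividing each back-transformed value by the lowest of its cell, and 100% were whole within 0.02. Of 3265 listed genes 1, with 11958 empty values, was left out, and 0 columns were unused. Symbols were matched to GENCODE M21 for 3237 genes, of which 1218, 1464 and 555 lie on chromosomes 1, 2 and 3. Depth was 503 to 23127 UMIs per cell, which sets the width of the Poisson intervals.

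The values of 1 member are not reported singly here, although it stayed in all counts and sums. Members and lists were chosen with earlier results of these data known. Genes were named if they had the most UMIs (5 cytosolic ribosomal, 5 respiratory chain, 3 mitochondrial ribosomal), were among the 5 highest or lowest ratios of a comparison, or belong to complex II. Other members were named after their values were seen, as were Egfl7-cell subsets, S100a6 and overlapping genes. Both the fold of 1.5 and the minimum of 100 UMIs serve as descriptions. Cells were thinned with random seed 1. Doublets were not called. Another 421 cells, positive for Egfl7 and for at least 2 fibroblast genes, stayed unclassed. Of Ptprc-positive cells (724), 74 were fibroblast-like and 163 Egfl7 cells by rule. The marker lists also held Mlph for melanocytes, at 0.263 in fibroblast-like and 0.0426 in Egfl7 cells, and no T cell gene was listed.

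UMI recovery and the ratio intervals were tested on simulated data. Alternatives changed the cells, class rules, denominator, summing, depth, members, fold and filter. Python 3.11.15, numpy 2.4.6, pandas 2.3.3, scipy 1.17.1 and matplotlib 3.10.9 were used.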

Additional observations from a re-analysis of the deposited data

How the results depend on the processing

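Of 107 values under the alternatives, 72 stayed within the counting interval of the ratio (or within 1.5 times the count) and 35 moved. Some of the 72 could not move, so this tally is no measure of stability. Leaving out Mrps28 or Rps3a1 cannot change groups without them, class rules cannot change ratios between runs, and no member is a Gm or -ps gene. The cause was not tested. For Egfl7 over fibroblast-like cells, the ratio of all members (1.46) was 1.57 with UMIs on listed genes as denominator, 1.33 as the mean of single cells, 1.37 and 1.75 in the first and second runs, 1.31 after thinning, 1.57 without Mrps28 and 1.39 without Rps3a1. For Ptprc cells (1.18) it was 1.13 with stricter markers, 1.11 as the mean of single cells, 1.04 and 1.41 in the runs, 1.06 after thinning, 1.27 without Mrps28 and 1.13 without Rps3a1. Between runs (1.36) it was 1.33 with the listed denominator, 1.40 without Mrps28 and 1.31 without Rps3a1. The cytosolic ribosomal ratio of Egfl7 cells (2.995) was 3.22, 2.45, 2.66 and 3.18, 2.41 and 2.88 under the listed denominator, the mean of cells, the 2 runs, thinning and without Rps3a1. That of Ptprc cells (2.02) was 1.53 in the first run and 1.70 after thinning, and that between runs (2.17) was 2.12 with the listed denominator and 2.27 after thinning. The mitochondrial ribosomal ratio of Egfl7 cells (1.01) was 1.08 with the listed denominator, 0.976 after thinning and 1.17 without Mrps28. The respiratory chain ratio (1.16) was 1.25, 1.09, 1.27 and 1.08 with the listed denominator, the mean of cells, the second run and thinning. Genes past the fold (1197) numbered 680 with a minimum of 1000 UMIs. Leaving out Rps3a1 was chosen after seeing the data.

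No paired analysis was possible because the barcodes carry no replicate number, and leaving out each replicate was not run for the same reason. The number of cells limits the Ptprc class most, where single members rest on 5 to 197 UMIs from 487 cells.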
